A study of Rattus norvegicus with 9 samples.

Results

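Solute carriers are the membrane proteins that move sugars, lactate, amino acids, metals, ions, vitamins and nucleotides into cells and between their compartments. Their transcripts were followed here in rat bone marrow-derived dendritic cells (BMDCs) stimulated with lipids of a gut bacterium. The members were all genes whose symbol begins with Slc, a number, a and a number in the list of genes that the study had called between total lipids (TLs) and the vehicle control, joined by Ensembl gene ID to the raw counts. That list was used for names only. It gave 50 such symbols, of which 49 were followed among 32545 genes counted. Because the list holds only genes called in the TL libraries against the vehicle libraries, the values of that contrast are given as a description and carry no test here. The α-GalCer libraries took no part in the choice, so TLs against α-GalCer is the contrast that was tested. It is not an independent test, since the TL libraries were used in the choice. With α-GalCer set against the vehicle in edgeR, 0 of 12602 genes passed the limits used here. Log2 fold changes of the members ran only from -0.23 to 0.28 there. A member chosen against the vehicle was therefore likely to pass against α-GalCer as well. The p-values given for TLs against α-GalCer set a difference against the spread between libraries and are no separate evidence for a response.

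The BMDCs came from wild type Sprague-Dawley rats and were grown from bone marrow for 7 days with GM-CSF and FLT3L, which gives a mixed culture of dendritic cells and related myeloid cells. Stimulation lasted 6 h and used TLs of Lactobacillus johnsonii N6.2, a probiotic gut symbiont, at 600 ng/mL, or α-GalCer at 100 ng/mL, a synthetic glycolipid that CD1d presents to natural killer T cells, or the vehicle control. Each group held 3 libraries. TLs were given in PBS while α-GalCer and the vehicle held DMSO and PBS, so an effect of TLs and an effect of the absence of DMSO cannot be told apart. Per the study, the data come from independent assays, and the p-values measure only the spread between these libraries.

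Dendritic cells that sense microbial products are known to raise glucose uptake and glycolysis within hours, to export lactate through MCT4, to import cystine for glutathione through xCT, and to move iron, zinc and manganese away from microbes in the phagosome. Many carriers work in pairs or chains: the SLC7 light chains LAT1, LAT2 and xCT reach the membrane only with the heavy chain 4F2hc, and DMT1 passes on iron that mitoferrin then takes into mitochondria. In a bulk culture, fewer cells of a type and less RNA per cell cannot be told apart.

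Libraries held 15190820 to 20591105 counts with TLs, 16379858 to 17882018 with α-GalCer and 16357236 to 17729881 with the vehicle, while 3 counts, the level that a count of 0 allows, were worth 0.155 to 0.210 CPM, the count scaled to sequencing depth at the TMM-normalized library size (TMM is edgeR's scaling for library composition). All intervals and floors cover counting error only. The members took 0.765 to 0.776% of all counts in the TL libraries, 0.526 to 0.541% in the α-GalCer libraries and 0.525 to 0.552% in the vehicle libraries. Of 10 dendritic cell markers listed, 5 could be matched by name: Itgax and Ccr7 rose with TLs against α-GalCer and Ciita, Irf8 and Clec10a fell. Their summed levels were 1074 to 1121 CPM with TLs, 830.0 to 894 CPM with α-GalCer and 889 to 944 CPM with the vehicle. Itgax made up much of that sum, averaging 666 CPM with TLs, 396 CPM with α-GalCer and 457 CPM with the vehicle. Of 8 macrophage and monocyte markers 6 could be matched: Cd14 and Adgre1 rose and Mrc1, Csf1r, Mertk and Fcgr1a fell. The summed level was 3392 to 3417 CPM with TLs, 1952 to 2019 CPM with α-GalCer and 1993 to 2078 CPM with the vehicle. Its rise came from Cd14, which averaged 2420 CPM with TLs, 423 CPM with α-GalCer and 450 CPM with the vehicle. The sum therefore does not show the direction of most of these markers. Of 8 neutrophil markers only Mpo could be matched. It stood at 427 to 435 CPM with TLs, 468 to 497 CPM with α-GalCer and 479 to 536 CPM with the vehicle. Of 4 plasmacytoid dendritic cell markers only Ptcra could be matched, at 0 in every TL library and at most 0.163 CPM elsewhere. All markers were matched through the study's list of called genes. The names used here matched none of the listed T cell, B cell, mast cell or erythroid markers, whose levels were therefore not analysed here. These marker levels moved together with the members named in the next paragraphs, and their part in those results was not tested.

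To show the DNA in front of members that moved in opposite directions, promoter windows were taken from RefSeq (GRCr8, a reference from another rat strain than Sprague-Dawley), each running from 250 bases before to 50 bases after the annotated start. The counts themselves were made on Rnor_6.0. A symbol match gave 42 windows for 39 of the 49 members. The 6 windows printed here belong to the hexose carriers Slc2a1 and Slc2a6, the lactate carrier Slc16a3, the metal carriers Slc39a8 and Slc31a2, and the lysosomal carrier Slc46a3, whose transcript was lower with TLs. They were chosen after the motif matches were seen, and they show a member with no match as well as members with several. Their positions are chr5:138002272-138002571, plus strand (Slc2a1), chr3:30753238-30753537, minus strand (Slc2a6), chr10:106712078-106712377, plus strand (Slc16a3), chr2:226929941-226930240, plus strand (Slc39a8), chr5:80753368-80753667, plus strand (Slc31a2) and chr12:12176584-12176883, plus strand (Slc46a3). Capitals mark letters that matched a searched motif on either strand.
Slc2a1: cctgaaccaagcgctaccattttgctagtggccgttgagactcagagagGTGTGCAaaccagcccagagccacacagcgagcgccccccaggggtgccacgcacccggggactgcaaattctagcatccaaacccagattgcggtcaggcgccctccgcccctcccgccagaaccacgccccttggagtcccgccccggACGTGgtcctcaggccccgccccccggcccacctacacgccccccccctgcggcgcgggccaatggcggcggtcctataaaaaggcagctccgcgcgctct
Slc2a6: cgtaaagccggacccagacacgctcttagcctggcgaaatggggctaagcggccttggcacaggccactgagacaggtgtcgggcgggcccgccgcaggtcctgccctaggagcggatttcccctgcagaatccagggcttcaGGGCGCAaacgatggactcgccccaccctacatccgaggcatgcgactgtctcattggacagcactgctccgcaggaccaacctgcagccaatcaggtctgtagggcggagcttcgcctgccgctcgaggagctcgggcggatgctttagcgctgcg
Slc16a3: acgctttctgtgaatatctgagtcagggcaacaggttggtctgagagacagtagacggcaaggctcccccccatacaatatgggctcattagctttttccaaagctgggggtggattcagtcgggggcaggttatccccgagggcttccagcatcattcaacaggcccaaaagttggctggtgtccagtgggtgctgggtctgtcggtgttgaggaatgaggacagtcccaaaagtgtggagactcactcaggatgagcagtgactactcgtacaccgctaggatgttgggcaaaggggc
Slc39a8: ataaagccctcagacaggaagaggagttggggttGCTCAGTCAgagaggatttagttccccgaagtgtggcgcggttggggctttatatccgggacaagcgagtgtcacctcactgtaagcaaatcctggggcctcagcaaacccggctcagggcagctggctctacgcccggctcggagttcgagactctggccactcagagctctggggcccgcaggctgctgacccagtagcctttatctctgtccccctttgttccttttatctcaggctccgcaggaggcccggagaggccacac
Slc31a2: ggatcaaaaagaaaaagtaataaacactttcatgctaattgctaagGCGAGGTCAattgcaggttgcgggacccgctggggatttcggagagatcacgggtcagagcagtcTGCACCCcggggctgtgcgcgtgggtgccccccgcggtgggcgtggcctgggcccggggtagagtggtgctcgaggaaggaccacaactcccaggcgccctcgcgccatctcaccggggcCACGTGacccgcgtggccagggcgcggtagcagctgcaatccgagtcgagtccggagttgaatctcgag
Slc46a3: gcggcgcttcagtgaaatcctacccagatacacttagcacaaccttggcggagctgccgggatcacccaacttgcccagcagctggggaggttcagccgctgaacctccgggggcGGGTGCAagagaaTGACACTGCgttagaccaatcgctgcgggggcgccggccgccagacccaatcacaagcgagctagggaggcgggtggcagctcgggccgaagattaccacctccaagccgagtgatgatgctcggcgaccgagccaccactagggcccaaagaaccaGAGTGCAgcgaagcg
In the Slc2a1 window the capitals are ACGTG, 51 bases before the start, and 1 match to the metal response element. ACGTG is 1 form of the core of the hypoxia response element, and no other form was searched or marked. The Slc2a6 window holds 1 metal response element match, the Slc39a8 window 1 antioxidant response element match, and the Slc16a3 window none. In the Slc31a2 window ACGTG lies on both strands within the palindrome CACGTG, beside an antioxidant and a metal response element match. The Slc46a3 window holds 1 antioxidant and 2 metal response element matches, of which the last lies after the start.

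Over the 42 member windows, TGACNNNGC, the antioxidant response element bound by NRF2, was present in 33.3% against 12.1% of all 33469 RefSeq windows of the same length, and in 7 of 21 windows of members that rose with TLs against α-GalCer and 7 of 15 windows of members that fell. ACGTG was present in 28.6% of member windows against 19.3% of all windows, and TGCACNC or TGCGCNC, the metal response element, in 35.7% against 24.2%. TGATGNAA, the amino acid response element, was present in 7.14% against 3.98%, and the NF-κB consensus in 4.76% against 7.51%. Member windows were richer in G and C (median 62.7% against 51.7%) and in CpG (median 22 against 7 per window). The set of all windows includes genes that these cells do not express, and the part of base composition in the shares was not tested. A match is a description of letters and not of a bound site.

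Against α-GalCer, 42 of 47 members tested passed the call in edgeR's quasi-likelihood test (Benjamini-Hochberg adjusted p under 0.01 over all genes and an absolute log2 fold change over 0.3): 24 rose and 18 fell with TLs. Of all 12602 genes tested, 9.85% were called higher and 10.5% lower in that contrast. The median log2 fold change was 0.31 over the members and -0.02 over all genes tested. Against the vehicle, the contrast the members were selected on, 24 were higher and 17 lower by the same call, beside 9.77% higher and 9.67% lower among all genes, and the median over the members was 0.35. Nothing is read from these counts in either contrast, since both used the TL libraries that served in the choice. Among the 5 members not called in either contrast were Slc12a2, Slc25a5, Slc25a11 and Slc6a16, and Slc35a1 was called against α-GalCer only. Just inside the fold change limit against the vehicle stood Slc25a39 at -0.31. Just outside it was Slc35a1 at -0.27, which also missed the limit on the adjusted p (0.0232 in edgeR). The other 2 of the 49 members, Slc4a9 and Slc17a3, had too few counts to be tested.

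**Figure D1:**
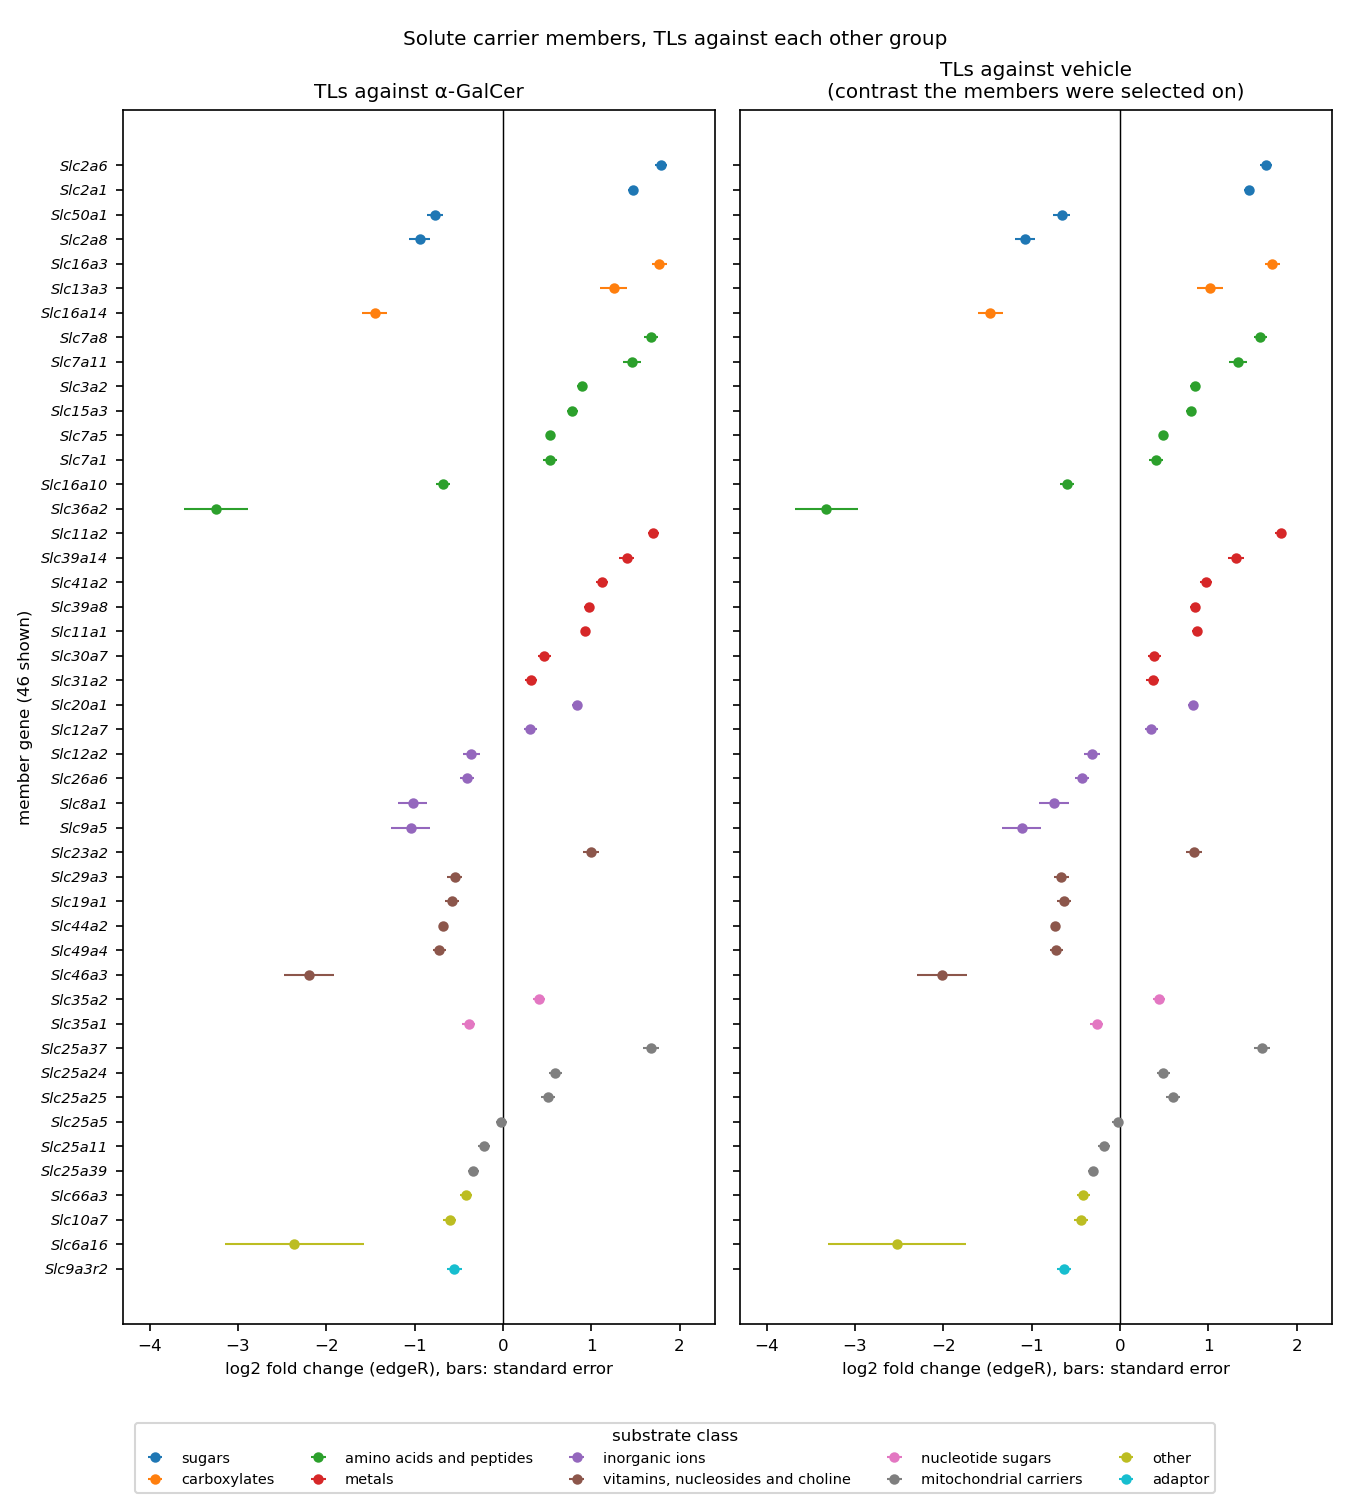
Log2 fold change (edgeR) of 46 of the 47 tested members with TLs against α-GalCer (left) and against vehicle (right, the contrast used to select them); points are members coloured by substrate class and bars are standard errors. All 7 members classed as metal carriers lie to the right of 0, from 0.32 to 1.70 against α-GalCer. The sodium/calcium exchanger Slc8a1, classed with the inorganic ions, lies to the left. So do 5 of 6 members of the vitamin, nucleoside and choline class.

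Among the sugar carriers, the surface glucose carrier and a lysosomal hexose carrier rose with TLs, while both remaining carriers, of intracellular membranes, fell. Slc2a1 (ENSRNOG00000007284), GLUT1, the widely expressed glucose carrier, had 703, 729 and 766 CPM in the TL libraries, 267, 255 and 268 CPM in the α-GalCer libraries and 263, 278 and 256 CPM in the vehicle libraries. Every TL library stood above every other library, and the level was 2.78-fold that with α-GalCer (log2 fold change 1.48 ± 0.0560, with the SE after the sign here and beside all log2 fold changes; adjusted p = 1.19e-08 in edgeR). Slc2a6 (ENSRNOG00000005900), GLUT6 of the lysosomal membrane, had 180.2, 187 and 190.2 CPM in the TL libraries, 52.4, 54.2 and 54.3 CPM in the α-GalCer libraries and 57.1, 64.8 and 55.1 CPM in the vehicle libraries. The groups TLs and α-GalCer did not overlap, and at 1.79 ± 0.0683 (adjusted p = 1.21e-08 in edgeR) this was the largest rise against α-GalCer among the 47 members tested. Slc16a3 was close behind at 1.77 ± 0.0829. Against the vehicle the largest rise was that of Slc11a2 (1.82 ± 0.0613), with Slc2a6 at 1.65 ± 0.0679. Slc2a8 (ENSRNOG00000022274), GLUT8, an intracellular hexose carrier, had 7.60, 6.44 and 6.59 CPM in the TL libraries, 12.5, 12.8 and 14.4 CPM in the α-GalCer libraries and 14.6, 14.4 and 14.7 CPM in the vehicle libraries. The 3 TL libraries were the lowest, with a log2 fold change of -0.94 ± 0.117 against α-GalCer (adjusted p = 1.07e-04 in edgeR) and -1.08 ± 0.117 against the vehicle. Slc50a1, the Golgi sugar carrier SWEET1, fell by 0.77 on the log2 scale against α-GalCer, with 19.1 ± 1.49 CPM with TLs, 32.4 ± 1.46 CPM with α-GalCer and 30.1 ± 2.90 CPM with the vehicle (SD, n = 3 each).

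Of 22 glycolysis and lactate genes listed beside these carriers, 5 could be matched by name, which means that the study had called them too, and 4 of the 5 rose with TLs against α-GalCer. They were Pfkfb3, whose product makes the allosteric activator of phosphofructokinase (log2 fold change 1.07 ± 0.0585), the phosphofructokinase Pfkl (0.85 ± 0.0886), and the hexokinases Hk1 (0.54 ± 0.0527) and Hk2 (0.41 ± 0.0651). The remaining one, pyruvate kinase Pkm, was at 0.21 ± 0.0455 and below the fold change limit.

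Among the carboxylate carriers, the lactate exporter and the dicarboxylate carrier rose with TLs and an orphan family member fell. Slc16a3 (ENSRNOG00000036677), MCT4, which exports lactate from glycolytic cells, had 292, 301 and 321 CPM in the TL libraries, 95.1, 82.8 and 90.1 CPM in the α-GalCer libraries and 91.5, 102 and 83.1 CPM in the vehicle libraries. TL libraries held 3.41-fold the α-GalCer level (log2 fold change 1.77 ± 0.0829; adjusted p = 5.61e-08 in edgeR), with no overlap. Its promoter window is the one printed without a motif match. Slc13a3 (ENSRNOG00000019118), NaDC3, the sodium-coupled dicarboxylate carrier, had 7.81, 7.06 and 7.43 CPM in the TL libraries, 3.20, 3.26 and 2.89 CPM in the α-GalCer libraries and 4.04, 3.63 and 3.31 CPM in the vehicle libraries. The lowest TL library was above the highest of the others, and the log2 fold change was 1.25 ± 0.151 against α-GalCer and 1.02 ± 0.150 against the vehicle. Slc16a14 (ENSRNOG00000017072), whose substrate is not established, had 16.7, 15.8 and 14.7 CPM in the TL libraries, 41.3, 46.8 and 41.5 CPM in the α-GalCer libraries and 48.8, 33.2 and 48.9 CPM in the vehicle libraries. All TL libraries were the lowest (-1.45 ± 0.142 against α-GalCer; adjusted p = 1.76e-05 in edgeR), and vehicle replicate 2 lay below both other vehicle libraries.

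**Figure D2:**
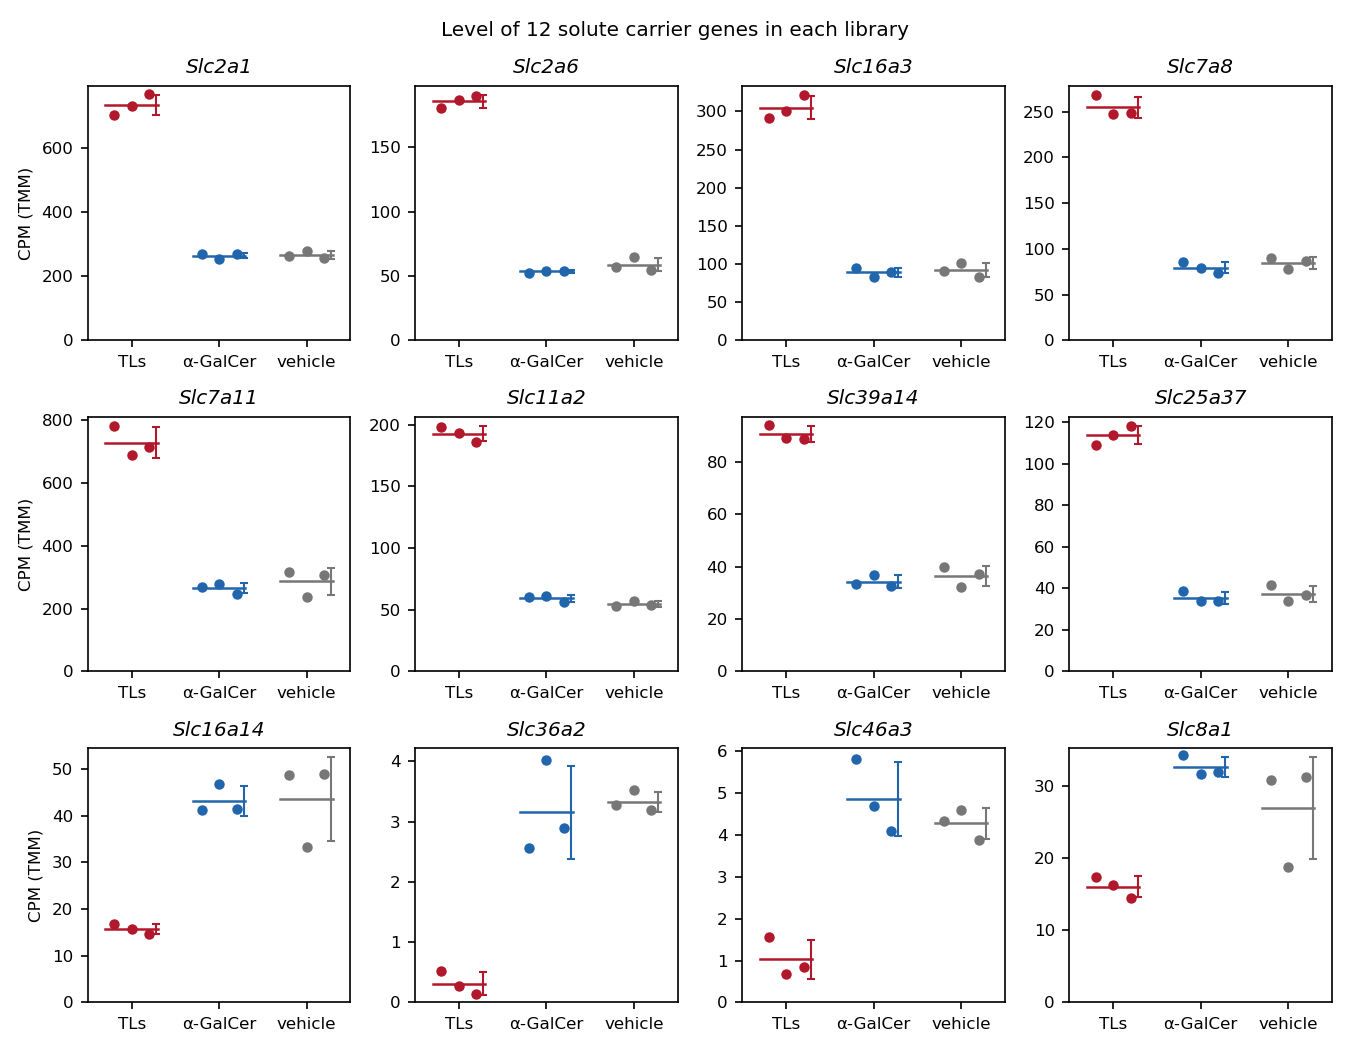
CPM (TMM-normalized library size) of 12 members in each of the 9 libraries; points are libraries, horizontal lines group means and error bars the SD of 3 libraries, with an axis from 0 for each gene. Slc2a1 stood at 703 to 766 CPM with TLs, and Slc36a2 at no more than 0.517 CPM with TLs, while for Slc8a1 vehicle replicate 2 at 18.8 CPM lay near the TL libraries.

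Of 8 carriers of amino acids and peptides, 6 rose with TLs against α-GalCer and 2 fell. Slc7a8 (ENSRNOG00000014311), LAT2, a light chain for neutral amino acids, had 268, 248 and 248 CPM in the TL libraries, 86.0, 78.8 and 74.1 CPM in the α-GalCer libraries and 89.7, 77.8 and 86.8 CPM in the vehicle libraries. The TL libraries were all above the rest (1.68 ± 0.0755 against α-GalCer; adjusted p = 4.17e-08 in edgeR). Slc7a11 (ENSRNOG00000010210), xCT, the light chain of the cystine/glutamate exchanger, had 783, 688 and 714 CPM in the TL libraries, 268, 278 and 247 CPM in the α-GalCer libraries and 317, 239 and 308 CPM in the vehicle libraries. The TL level was 2.76-fold that with α-GalCer (1.46 ± 0.102; adjusted p = 1.34e-06 in edgeR), and vehicle replicate 2 was again the lowest vehicle library. Slc3a2, 4F2hc, the heavy chain of these carriers, averaged 643 ± 18.4 CPM with TLs, 346 ± 7.52 CPM with α-GalCer and 357 ± 19.8 CPM with the vehicle (SD, n = 3 each). It rose by 0.89 ± 0.0549 on the log2 scale against α-GalCer. Smaller rises were those of the lysosomal histidine and peptide carrier Slc15a3 (0.79 ± 0.0594), of Slc7a5, the light chain LAT1 (0.54 ± 0.0501), and of the cationic amino acid carrier Slc7a1, CAT1 (0.53 ± 0.0787).

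The lower members of this class were Slc36a2 and Slc16a10. Slc36a2 (ENSRNOG00000011892), PAT2, a proton-coupled carrier of small amino acids, had 10, 4 and 2 counts in the TL libraries, 44, 74 and 53 counts in the α-GalCer libraries and 56, 62 and 56 counts in the vehicle libraries. This was the largest fall among the members tested, to 0.105 of the α-GalCer level by the fit (-3.25 ± 0.357; adjusted p = 4.35e-05 in edgeR). The summed counts gave a ratio of 0.105 with an exact 95% binomial interval of 0.0585 to 0.175. Without TL replicate 1 the log2 fold change was -3.88 against α-GalCer and -3.96 against the vehicle. Slc16a10, TAT1, which carries aromatic amino acids, fell by 0.67 on the log2 scale against α-GalCer, with 16.2 ± 0.233 CPM with TLs, 25.9 ± 0.570 CPM with α-GalCer and 24.6 ± 1.65 CPM with the vehicle (SD, n = 3 each).

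Since the light chains share 1 heavy chain, the level of each was set against Slc3a2 within each library. These log2 ratios of CPM are not corrected for transcript length and so are compared between groups only. Slc7a8 over Slc3a2 averaged -1.34 ± 0.106 with TLs, -2.12 ± 0.125 with α-GalCer and -2.07 ± 0.187 with the vehicle (SD, n = 3 each). Slc7a11 over Slc3a2 averaged 0.18 ± 0.133 with TLs, -0.39 ± 0.0778 with α-GalCer and -0.32 ± 0.305 with the vehicle. Slc7a5 over Slc3a2 went the other way, at -2.03 ± 0.0545 with TLs, -1.68 ± 0.0363 with α-GalCer and -1.67 ± 0.0968 with the vehicle. For each of these pairs the TL libraries did not overlap with any other library, with higher ratios for LAT2 and xCT and a lower ratio for LAT1. The differences between these ratios were not tested.

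**Figure D3:**
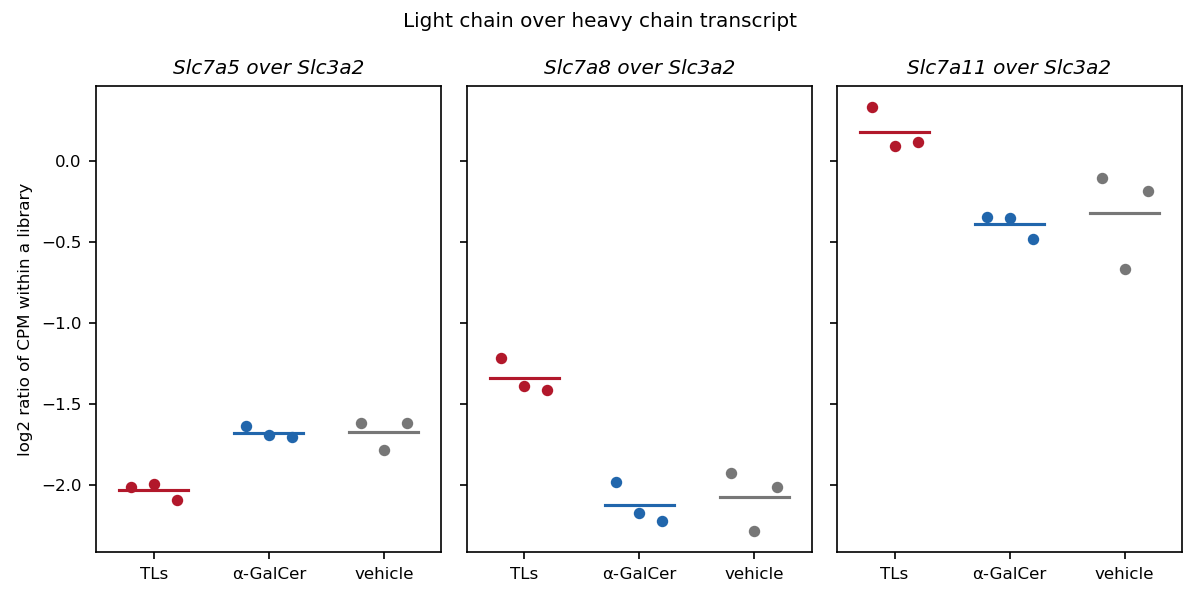
Log2 ratio of CPM of each light chain (Slc7a5, Slc7a8, Slc7a11) over the heavy chain Slc3a2 within each library; points are libraries and lines group means. The TL libraries lie below the others for Slc7a5 (mean -2.03) and above them for Slc7a8 (mean -1.34) and Slc7a11 (mean 0.18).

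Of 10 glutathione and cystine genes listed, 5 could be matched and all 5 rose with TLs against α-GalCer: the thioredoxin reductase Txnrd1 (1.05 ± 0.0464), the quinone reductase Nqo1 (0.66 ± 0.0687), the NRF2 gene Nfe2l2 (0.43 ± 0.0643), the rate-limiting glutathione synthesis gene Gclc (0.39 ± 0.0671) and Chac1, which degrades glutathione (0.77 ± 0.137). Of 8 amino acid sensing genes only Trib3, a target of ATF4, could be matched (0.58 ± 0.103). These companions had been called by the study in the same TL libraries, so their direction is not independent of the choice.

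All 7 members classed here as metal carriers rose with TLs against α-GalCer, with a median log2 fold change of 0.97. That count depends on the border of the class. The magnesium carrier Slc41a2 was counted in it, while the sodium/calcium exchanger Slc8a1, which fell (-1.02), was classed with the inorganic ions. Like all members, these had been chosen for a difference between the TL and vehicle libraries. Slc11a2 (ENSRNOG00000019550), DMT1, the divalent metal carrier of iron uptake, had 198, 193 and 186 CPM in the TL libraries, 60.7, 60.8 and 56.2 CPM in the α-GalCer libraries and 52.7, 57.4 and 53.6 CPM in the vehicle libraries. Its TL level was 3.25-fold the α-GalCer level (1.70 ± 0.0609; adjusted p = 7.88e-09 in edgeR) without overlap. Slc39a14 (ENSRNOG00000009832), ZIP14, an importer of zinc, iron and manganese, had 94.0, 89.1 and 88.7 CPM in the TL libraries, 33.5, 36.9 and 32.5 CPM in the α-GalCer libraries and 39.7, 32.4 and 37.4 CPM in the vehicle libraries. Again every TL library was above the rest (1.40 ± 0.0872; adjusted p = 5.04e-07 in edgeR). Slc41a2 (ENSRNOG00000008713), a magnesium carrier, had 137, 139 and 128 CPM in the TL libraries, 62.1, 63.5 and 60.7 CPM in the α-GalCer libraries and 67.3, 64.3 and 74.8 CPM in the vehicle libraries. It rose by 1.12 ± 0.0688 on the log2 scale against α-GalCer (adjusted p = 4.66e-07 in edgeR), and the α-GalCer libraries were all below the vehicle libraries.

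Slc39a8, ZIP8, an importer of zinc and other divalent metals, averaged 154 ± 5.49 CPM with TLs, 78.6 ± 3.41 CPM with α-GalCer and 85.4 ± 3.08 CPM with the vehicle (SD, n = 3 each; log2 fold change 0.97 ± 0.0585 against α-GalCer). Slc11a1, NRAMP1, which draws divalent metals out of phagosomes, averaged 783 ± 26.3 CPM with TLs, 410.4 ± 7.06 CPM with α-GalCer and 429 ± 10.0 CPM with the vehicle (0.93 ± 0.0486). The smallest rises were those of Slc30a7, ZnT7, which moves zinc into the Golgi (0.47 ± 0.0763), and of Slc31a2, the copper carrier family member CTR2 (0.32 ± 0.0716; adjusted p = 0.00546 in edgeR). The call for Slc31a2 was lost with upper quartile scaling, where its log2 fold change was 0.25, with the replicate block, and without TL replicate 2, TL replicate 3 or any 1 of the α-GalCer libraries (0.27 to 0.34). Among the mitochondrial carriers, the iron importer mitoferrin-1 also rose: Slc25a37 (ENSRNOG00000015495) had 109, 114 and 118 CPM in the TL libraries, 38.9, 34.0 and 33.7 CPM in the α-GalCer libraries and 41.4, 33.7 and 36.7 CPM in the vehicle libraries. All 3 TL libraries stood above the rest, at 3.20-fold the α-GalCer level (1.68 ± 0.0894; adjusted p = 1.51e-07 in edgeR).

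Of 12 iron genes listed, 6 could be matched: Lcn2, which sequesters bacterial siderophores (4.87 ± 0.135 against α-GalCer), Fbxl5, the iron-sensing ubiquitin ligase subunit (1.01 ± 0.0591), and Hmox1, heme oxygenase (0.72 ± 0.0632), rose. Aco1, the iron regulatory protein IRP1, fell (-0.43 ± 0.0724). The transferrin receptor gene Tfrc and the ferritinophagy receptor gene Ncoa4 were not called. Of 7 zinc and copper genes only the metallothionein Mt2A could be matched, and it rose by 1.81 ± 0.122.

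The carriers of inorganic ions were divided: of 7 tested, 2 rose and 3 fell with TLs against α-GalCer. Slc20a1, the sodium-phosphate importer PiT1, averaged 517 ± 10.7 CPM with TLs, 289.7 ± 10.9 CPM with α-GalCer and 292 ± 6.79 CPM with the vehicle (SD, n = 3 each). It rose by 0.83 ± 0.0503 on the log2 scale. Slc12a7, the potassium-chloride exporter KCC4, rose by 0.31 ± 0.0767 (adjusted p = 0.00935 in edgeR), near both limits of the call, which it missed without any 1 of the TL or α-GalCer libraries (0.29 to 0.34), without vehicle replicate 3 and with the replicate block (0.31 each), and with upper quartile scaling (0.24). Slc8a1 (ENSRNOG00000008479), the sodium/calcium exchanger NCX1, had 17.3, 16.3 and 14.4 CPM in the TL libraries, 34.2, 31.7 and 31.9 CPM in the α-GalCer libraries and 30.8, 18.8 and 31.1 CPM in the vehicle libraries. The TL libraries were below all others, with log2 fold changes of -1.02 ± 0.167 against α-GalCer (adjusted p = 7.79e-04 in edgeR) and -0.74 ± 0.168 against the vehicle. There replicate 2 lay closer to the TL libraries than to the vehicle libraries beside it. Slc9a5 (ENSRNOG00000028844), the sodium/proton exchanger NHE5, had 2.90, 5.48 and 5.54 CPM in the TL libraries, 10.6, 8.54 and 9.32 CPM in the α-GalCer libraries and 10.6, 9.31 and 9.94 CPM in the vehicle libraries. TL replicate 1 was the lowest library and all TL libraries lay below the rest. The log2 fold change was -1.04 ± 0.221 against α-GalCer (adjusted p = 0.00396 in edgeR), and the call was lost without α-GalCer replicate 1 (-0.96) or replicate 3 (-1.05). Slc26a6, an exchanger of chloride, oxalate and bicarbonate, fell by 0.40 on the log2 scale against α-GalCer, a call that was lost without TL replicate 2 or replicate 3 (-0.39 each).

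Slc12a2, the sodium-potassium-chloride importer NKCC1, was not called (-0.36 ± 0.0932 against α-GalCer). It was called in DESeq2 and in the fit of 2 groups (-0.34 each). The same held with upper quartile scaling (-0.43) and without vehicle replicate 2 (-0.36). Slc17a3, NPT4, a carrier of organic anions, was too low to be tested, with 27, 25 and 4 counts in the TL libraries, 4, 1 and 1 counts in the α-GalCer libraries and 2, 2 and 6 counts in the vehicle libraries. Its summed counts gave 10.4-fold the α-GalCer level (exact 95% binomial interval 4.51 to 29.7). However, TL replicate 3, at 0.280 CPM, lay little above the highest α-GalCer library (0.232 CPM) and below vehicle replicate 3 (0.343 CPM). Slc4a9, of the bicarbonate carrier family, was also too low, with 0, 0 and 1 counts in the TL libraries, 2, 1 and 7 counts in the α-GalCer libraries and 1, 4 and 2 counts in the vehicle libraries, near the floor of 3 counts in most libraries. Of 9 ion pump and volume channel genes listed, the plasma membrane calcium pump gene Atp2b1 rose (0.52 ± 0.114) and the sodium pump subunit gene Atp1b1 fell (-0.65 ± 0.0858).

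Members placed in the class of vitamins, nucleosides and choline fell with TLs in 5 of 6 cases against α-GalCer. Slc46a3 counts here only as a relative of a folate carrier and not by a substrate of its own. Slc46a3 (ENSRNOG00000000937), a lysosomal carrier related to the proton-coupled folate carrier, had 1.55, 0.685 and 0.841 CPM in the TL libraries, 5.81, 4.68 and 4.09 CPM in the α-GalCer libraries and 4.33, 4.60 and 3.88 CPM in the vehicle libraries. All TL libraries were below the rest, at 0.218 of the α-GalCer level (-2.20 ± 0.282; adjusted p = 1.41e-04 in edgeR). Slc23a2 (ENSRNOG00000021262), the vitamin C importer SVCT2, was the one that rose, with 473, 456 and 450.4 CPM in the TL libraries, 244, 225 and 223 CPM in the α-GalCer libraries and 271, 215 and 285 CPM in the vehicle libraries. TL libraries did not overlap with the rest (0.99 ± 0.0930 against α-GalCer; adjusted p = 1.27e-05 in edgeR). The smaller falls were those of Slc49a4, a lysosomal membrane carrier (-0.72 ± 0.0744), Slc44a2, a choline transporter-like protein (-0.68 ± 0.0464), Slc19a1, the reduced folate carrier (-0.58 ± 0.0807), and Slc29a3, the lysosomal nucleoside carrier ENT3 (-0.54 ± 0.0861). Of 9 proton pump and lysosome genes listed, 6 could be matched: Tfeb, a transcription factor of lysosomal genes (-0.67 ± 0.0777), and the proton pump subunit Atp6v0d2 (-0.41 ± 0.0750) fell, and 4 were not called. These 4 were the subunits Atp6v1b2 (-0.15 ± 0.0444), Atp6v1a (-0.06 ± 0.0653) and Atp6v0a1 (0.03 ± 0.0627), and the lysosomal membrane gene Lamp1 (0.01 ± 0.0514).

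Both nucleotide sugar carriers of the Golgi were called against α-GalCer, in opposite directions. Slc35a2 (ENSRNOG00000024801), which carries UDP-galactose, had 73.6, 75.9 and 84.7 CPM in the TL libraries, 59.6, 59.0 and 57.7 CPM in the α-GalCer libraries and 57.8, 57.7 and 57.1 CPM in the vehicle libraries. The TL libraries were above the rest (0.41 ± 0.0664 against α-GalCer; adjusted p = 7.39e-04 in edgeR). Slc35a1 (ENSRNOG00000008908), which carries CMP-sialic acid, had 31.9, 32.1 and 28.9 CPM in the TL libraries, 39.8, 42.4 and 39.6 CPM in the α-GalCer libraries and 36.8, 40.1 and 34.9 CPM in the vehicle libraries. The TL libraries were below the rest (-0.39 ± 0.0777; adjusted p = 0.00282 in edgeR), a call that was lost without TL replicate 3 or α-GalCer replicate 2 (-0.34 each), and the log2 fold change against the vehicle was -0.27 ± 0.0779.

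Of 6 mitochondrial carriers, 3 rose and 1 fell with TLs against α-GalCer. Beside mitoferrin-1, the calcium-regulated ATP-magnesium/phosphate carriers rose: Slc25a25 (ENSRNOG00000014338) had 53.1, 59.3 and 53.4 CPM in the TL libraries, 41.9, 36.5 and 38.0 CPM in the α-GalCer libraries and 35.9, 38.6 and 35.0 CPM in the vehicle libraries. Its TL libraries stood above the rest (0.51 ± 0.0802; adjusted p = 6.04e-04 in edgeR), and Slc25a24 rose by 0.59 ± 0.0737 on the same scale. Slc25a39, the mitochondrial glutathione importer, fell by 0.34 on the log2 scale against α-GalCer, a call that was lost without TL replicate 1 (-0.31). The oxoglutarate/malate exchanger Slc25a11 (-0.21 ± 0.0678) and the ADP/ATP exchanger Slc25a5 (-0.02 ± 0.0637) were not called. Slc25a5 averaged 752 ± 14.8 CPM with TLs, 762 ± 27.0 CPM with α-GalCer and 767 ± 66.5 CPM with the vehicle (SD, n = 3 each). Slc25a5 has near-identical processed copies in rodent genomes and the handling of reads that map to several places is not given in the sources used here, so its level is uncertain.

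Among the members of no other class, Slc10a7, of the bile acid carrier family, had 22.4, 22.0 and 21.9 CPM in the TL libraries, 31.0, 34.6 and 35.2 CPM in the α-GalCer libraries and 28.4, 30.5 and 31.2 CPM in the vehicle libraries. The TL libraries were below the rest (-0.60 ± 0.0757 against α-GalCer; adjusted p = 1.21e-04 in edgeR), and Slc66a3, a PQ-loop protein, fell by 0.42 on the same scale. Slc6a16 (ENSRNOG00000025220), an orphan of the neurotransmitter carrier family, was close to the limit of detection, with 0, 1 and 3 counts in the TL libraries, 4, 13 and 8 counts in the α-GalCer libraries and 10, 7 and 10 counts in the vehicle libraries. Its fitted log2 fold change of -2.36 ± 0.792 against α-GalCer was not called (adjusted p = 0.0403 in edgeR) and was -1.68 without TL replicate 1 and -3.67 without TL replicate 3. The summed counts gave a ratio of 0.179 (exact 95% binomial interval 0.0453 to 0.519). The symbol pattern also took in Slc9a3r2 (ENSRNOG00000002997), NHERF2, a scaffold that binds sodium/proton exchangers and carries nothing itself, with 20.4, 21.5 and 22.0 CPM in the TL libraries, 31.3, 32.4 and 29.9 CPM in the α-GalCer libraries and 31.3, 36.7 and 31.1 CPM in the vehicle libraries. It fell by 0.55 on the log2 scale against α-GalCer, and without it 24 of 46 carriers tested rose and 17 fell.

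Between α-GalCer and the vehicle no member was called: 0 of 47 passed in edgeR or in DESeq2, beside 0% of all genes called in edgeR. Of the members, 0 had an unadjusted p under 0.05 in edgeR, beside 2.94% of all genes. Log2 fold changes ran from -0.23 to 0.28 with a median of -0.04. The 3 libraries of each group did not overlap for 7 of the 47 members, beside 6.74% of all genes: Slc8a1 was higher in every α-GalCer library, and Slc2a6, Slc13a3, Slc7a5, Slc11a1, Slc41a2 and Slc44a2 were lower. The vehicle libraries had taken part in the choice of the members, so this contrast is not fully independent of it either. Values that miss the limit are not shown to be alike.

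Vehicle replicate 2 was the highest of the vehicle libraries in 22 of 47 members tested, the lowest in 22 and between the others in 3. It was thus at either end in 93.6% of the members, beside 83.8% of all genes tested. Vehicle replicate 1 was at either end in 48.9% of the members and 59.4% of all genes, and vehicle replicate 3 in 57.4% and 56.7%. Without vehicle replicate 2, Slc8a1 was at 0.07 ± 0.0835 on the log2 scale between α-GalCer and the vehicle, against 0.28 with all libraries. Slc13a3 was then at -0.24 ± 0.179. Again no member was called in edgeR. An unadjusted p under 0.05 was reached by 10 of 48 members tested in edgeR, beside 11.5% of all genes, and the smallest adjusted p over the members was 0.156 in edgeR. Among these 10 were the vitamin C importer Slc23a2 at -0.27, the cystine carrier Slc7a11 at -0.24, the cationic amino acid carrier Slc7a1 at -0.21 and the metal carrier Slc11a2 at 0.16.

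**Figure D4:**
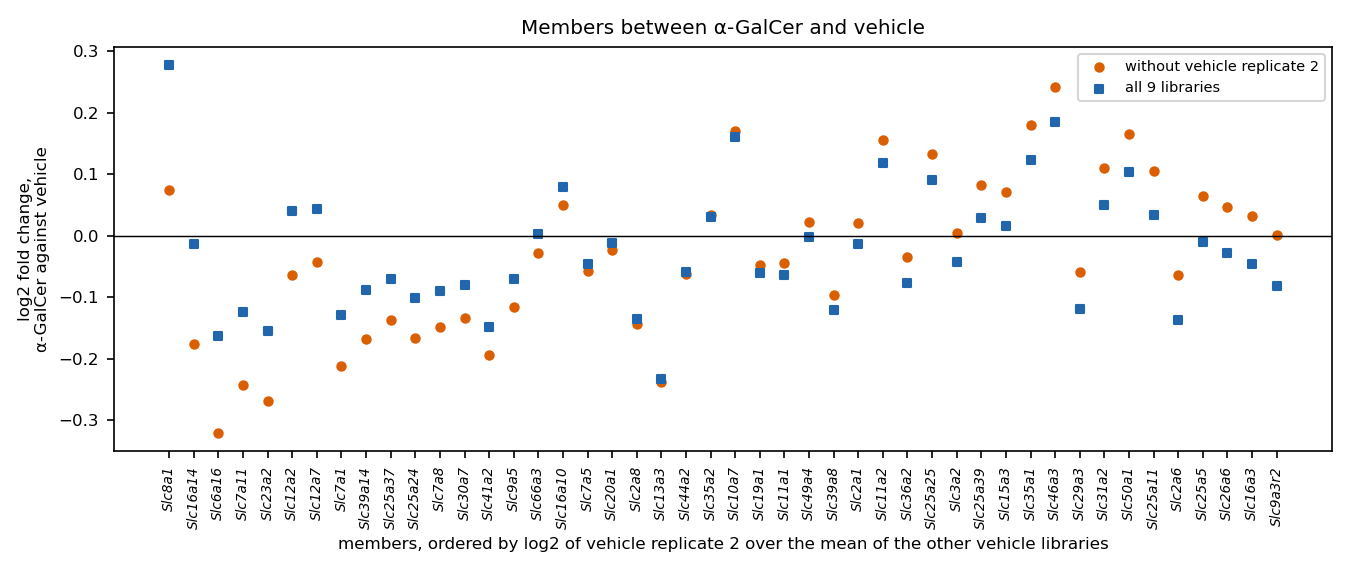
Log2 fold change of 46 of the 47 tested members with α-GalCer against vehicle, with all 9 libraries (squares) and without vehicle replicate 2 (circles); members run from left to right by the log2 ratio of vehicle replicate 2 over the mean of the other vehicle libraries. With all libraries the values lie between -0.23 and 0.28, and leaving out the library moves Slc8a1, at the left end, to 0.07.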

How the data were processed

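RNA was sequenced from 9 libraries. The deposited files hold whole-number counts of reads for each Ensembl gene, without normalization. Per their methods, the authors used fastp to clean paired-end poly-A reads, HISAT2 to align to Rnor_6.0 and featureCounts to count; versions, annotation release, strand and multi-mapping settings are not given in the sources used here. The copy of the study's gene list used for names held 1999 of 2283 rows (284 not held), so carriers past its end are not covered. Other solute carrier genes could not be named and were not analysed here, and 1 symbol that matched the pattern and the values of some further genes are not reported here. The members and lists were chosen with earlier results of these data known.

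Counts were fitted with edgeR 4.0.16 in R 4.3.3 (filterByExpr, 12602 of 32545 genes; TMM; quasi-likelihood F-test on 9 libraries with group as the only term). Calls needed an adjusted p (Benjamini-Hochberg) below 0.01 together with a log2 fold change beyond 0.3 in either direction, the study's limits. The SE is the absolute log2 fold change over the square root of F. The fit was tried on simulated counts in which 200 genes were changed 2-fold with TLs, evenly up and down. Far more genes were called in these data, so that run cannot show how the scaling performs here. Per-library values were given for members whose log2 fold change reached 1 in size against either group, and otherwise for the 2 largest of a class; companion genes were named by smallest p against α-GalCer, up to 4 per list, and the rest of a list with 5 or 6 matches was named after the values were seen. DESeq2 1.42.0, other scalings and filters, a replicate block, fits of 2 groups and leaving out each library were the alternatives.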

Additional observations from a re-analysis of the deposited data

How the results depend on the processing

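Under the alternatives tried, 36 to 42 members were called against the vehicle and 39 to 44 against α-GalCer, and no member's log2 fold change reversed among called values. The calls most often lost were those of Slc31a2, Slc12a7, Slc25a39 and, against the vehicle, Slc8a1. Upper quartile scaling moved the median of all genes to -0.09 in both contrasts and the split of all calls to 1000 higher and 1742 lower against α-GalCer (1002 and 1614 against the vehicle), beside 1241 and 1321 (1231 and 1219) with TMM, while 22 members were called higher and 19 lower against α-GalCer. Deviations of same-numbered libraries were hardly correlated (-0.06 to 0.12), which cannot settle whether equal numbers stand for a shared assay. With the replicate block 40 members were called against α-GalCer and 41 against the vehicle. Leaving out TL replicate 1 took Slc36a2 to -3.88, and Slc6a16 was at -1.68 without TL replicate 1 and -3.67 without TL replicate 3. Without a filter, Slc17a3 was called against α-GalCer (log2 fold change 3.28, adjusted p = 0.00323 in edgeR). Slc4a9 and Slc6a16 had few counts in every library, and the TL libraries differed in Slc17a3 (27, 25 and 4 counts). No correction for gene length or GC content was possible, since no lengths were at hand.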
